A study of Mus musculus with 2 samples.

Results

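Malat1, Neat1, Miat and Tug1 are long noncoding RNAs known for their place in the nucleus, and their levels were read here from messenger RNA libraries of uninduced mouse embryonic stem cells (mESCs). They were taken by name from the count table and make up 4 of its 22556 genes. The cells were female iXist-ChrX-Dom mESCs of strain Dom/129S x Cast, in which the endogenous Xist promoter on the Dom/129S allele was exchanged for a TetOn promoter, so that Xist can be switched on with doxycycline. Both libraries were untreated and taken at 0 h, in medium with serum and LIF, after feeder fibroblasts had been removed by pre-plating. The series holds 1 group of 2 replicates of this engineered line, so no treatments could be compared. Nothing says that the replicates were separate cultures, and every p-value below measures only the difference between these 2 libraries, which may be technical.

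Malat1 is a very abundant RNA of nuclear speckles, the nuclear bodies in which splicing factors are stored. Neat1 is the scaffold of paraspeckles, bodies built on its long isoform together with proteins such as NONO and SFPQ, while its short isoform is polyadenylated and is not sufficient to build them. Malat1 and the long Neat1 isoform are neighbours in the genome and share an unusual 3′ end: RNase P cuts the primary transcript before a tRNA-like fold, and the new end has no poly(A) tail but is folded into a triple helix of U-rich and A-rich stretches. Miat, also called Gomafu, is spliced and polyadenylated yet stays in the nucleus, is best known from neurons and retina, and carries repeats of the sequence that splicing factor SF1 recognises at intron branch points. Tug1 is a spliced, polyadenylated RNA found in nucleus and cytoplasm of many cell types. The label of these samples names total RNA as the molecule, but the protocol isolated messenger RNA on oligo(dT) beads. How far RNAs without a poly(A) tail were retained was not tested.

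What the table counted for each gene differed from the whole gene, most of all for Neat1. Coordinates of the counted spans are those of the deposited table (mm10), and all 4 genes lie on the minus strand. Malat1 was counted over chr19:5795689-5802671, a span of 6983 bp that holds a single-exon transcript, Malat1-201. Neat1 was counted over chr19:5842301-5845478, only 3178 bp, which is 15.3% of the 20771 bp that GENCODE M21 annotates. The remaining 17593 bp lie within the long isoform Neat1-201 and gave no counts to the gene. The span does hold the whole of the short isoform Neat1-202, which has 2 exons and 3004 bp. Fragments from the 5′ part of the long isoform were also counted there, so the isoforms cannot be told apart from these counts. Miat was counted over chr5:112213227-112228948, 15722 bp with introns, and its longest transcript Miat-205 has 7 exons and 9163 bp. Tug1 was counted over chr11:3639784-3648814, 9031 bp, and its longest transcript Tug1-201 has 2 exons and 6719 bp. GENCODE classes Tug1 as antisense and the other 3 as lincRNA, but no counted span overlapped a listed gene on either strand.

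**Figure D1:**
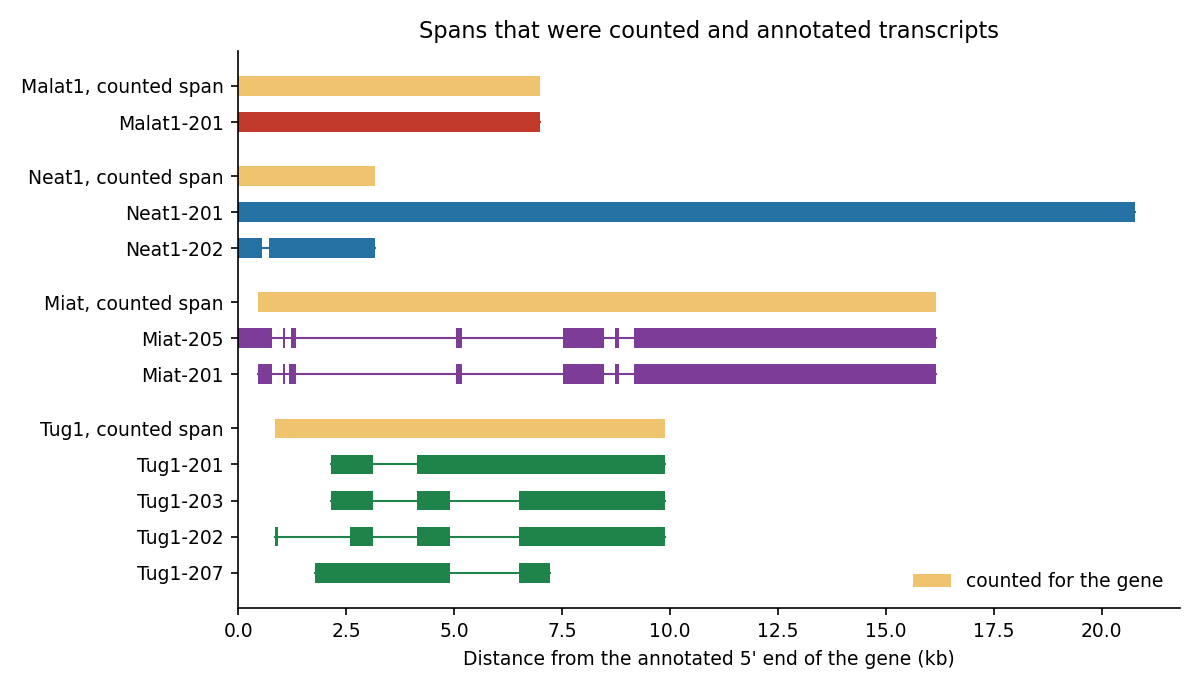
The spans counted for each gene in the deposited table (yellow) above the GENCODE M21 transcripts of that gene of at least 2 kb (boxes are exons, lines are introns), plotted as distance in kb from the annotated 5′ end. The counted span of Neat1 ends after 3178 bp, while Neat1-201 runs for 20771 bp.

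The sequences that bear on these measurements are the 3′ ends, since bead capture starts from stretches of A. They were taken from GENCODE M21 transcripts (GRCm38, the assembly of mm10, minus strand) and are written 5′ to 3′ as on the transcript. The first pair shows the A-rich stretch of Malat1-201 (chr19:5795979-5796038) and the end of Neat1-201 (chr19:5824708-5824767), with the A-rich part in capitals.
Malat1-201: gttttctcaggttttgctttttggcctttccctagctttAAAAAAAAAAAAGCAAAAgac
Neat1-201: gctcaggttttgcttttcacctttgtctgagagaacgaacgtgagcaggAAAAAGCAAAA
Both windows hold the run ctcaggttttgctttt, 16 bases long, and the run aaaaagcaaaa, 11 bases long. The longest run of A in Malat1-201 had 12 bases and ended 298 bases before the annotated end. A run of at least 12 A was held by the longest transcript of 8.71% of 22137 genes, and by 29.1% of the 1504 transcripts at least as long as Malat1-201. The A-rich end of Neat1-201 lies outside the span that was counted.

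The other set shows the last 50 bases of a transcript of each gene, with the polyadenylation signal AATAAA in capitals where it occurs. They lie at chr19:5795690-5795739 for Malat1-201, chr19:5842307-5842356 for Neat1-202, chr11:3639785-3639834 for Tug1-201 and chr5:112213228-112213277 for Miat-205.
Malat1-201: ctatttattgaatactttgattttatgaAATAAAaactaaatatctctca
Neat1-202: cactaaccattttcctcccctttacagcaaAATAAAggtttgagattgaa
Tug1-201: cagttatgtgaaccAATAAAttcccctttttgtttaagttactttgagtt
Miat-205: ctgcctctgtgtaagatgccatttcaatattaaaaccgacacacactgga
AATAAA was searched on the transcript strand, and it stood in the last 50 bases of the longest transcript of 59.4% of 22137 genes. It was present in the ends of Malat1-201, Neat1-202 and Tug1-201 and not in that of Miat-205. Other forms of the signal were not searched for, so this does not show that Miat-205 lacks a signal. The Malat1-201 end shown here lies downstream of the A-rich stretch. The last sequence, from Miat-205 at chr5:112216756-112216807, shows 3 of the repeats for which this RNA is known, with TACTAAC in capitals.
Miat-205: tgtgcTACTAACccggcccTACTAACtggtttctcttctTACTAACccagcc
Miat-205 held TACTAAC 6 times in 9163 bases, where 6.86% of 22137 genes held it at least 1 time. The long Neat1-201 held it 1 time, and Malat1-201 and Tug1-201 did not hold it. Besides Miat, only Slc8a1 held it at least 6 times, with 8 copies in 18464 bases (a gene picked out after its values were seen).

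The libraries held 23716499 and 20275749 counts, so that 3 counts, the limit that a count of 0 allows, stood at 0.126 and 0.148 counts per 1000000 (CPM). Intervals and such limits cover counting error only. All 10 mESC markers reached at least 1 TPM (counts per kb of the deposited length column, scaled to 1000000), with a median of 680 TPM. Of 8 neural precursor markers 7 could be counted (the other lies wholly within another gene of its strand), 2 of them reached 1 TPM, and Olig2 was at 0 in both libraries, although the label reads mESC to NPC. Of 8 fibroblast markers, 1 reached 1 TPM and Lum was at 0. The replicates differed widely beyond sampling noise, and the mESC marker with the largest difference past the test, Dppa5a, had 2915 counts in replicate 1 and 298 in replicate 2.

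Malat1 was among the RNAs with the most counts in these libraries. It had 103395 counts in replicate 1 and 94165 in replicate 2. These were 0.436% of all counts in replicate 1 (95% Wilson interval 0.433% to 0.439%), or 1 count in 229, and 0.464% in replicate 2 (0.461% to 0.467%), or 1 in 215. Only 4 genes in replicate 1 and 5 in replicate 2 had more counts. Per length this made 9982 TPM in replicate 1 and 11935 in replicate 2, a mean of 10958 ± 1381 TPM (SD, n = 2), rank 6 of all 22556 genes. Genes with higher means included Eef1a1, the elongation factor that brings aminoacyl-tRNA to the ribosome (37927 TPM), and Hsp90aa1, a cytosolic chaperone (17746 TPM).

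The rank of Malat1 depended on the length used, because a single-exon transcript covers its whole span, while the deposited length of most genes includes introns. Over all genes the deposited length had a median of 15760.5 bp and the exonic length of 2801 bp. Intron fragments stay in the counts when exonic lengths are used. With exonic lengths (the union of GENCODE exons), Malat1 stood at 1970 and 2231 TPM in replicates 1 and 2 (2100 ± 185 TPM), rank 32 of all genes. Among 1602 genes annotated as noncoding, it ranked 1 by CPM and by deposited length and 3 by exonic length, after Gas5 and Snhg1, a pair of RNAs whose introns carry small nucleolar RNAs.

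Tug1 had the next highest level of the 4. It had 14060 counts in replicate 1 and 16017 in replicate 2, or 593 and 790 CPM. Its level was 1050 TPM in replicate 1 and 1570 TPM in replicate 2, a mean of 1310 ± 368 TPM with rank 87 of all genes. Replicate 2 was the higher library, and the SD was a larger part of the mean than for Malat1 or Neat1. With exonic lengths Tug1 stood at 276 and 391 TPM (333 ± 81.3 TPM), rank 562. Among noncoding genes it ranked 6 by deposited length, 7 by CPM and 15 by exonic length.

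Neat1 was measured at a moderate level, and its value rested on the window that was counted. It had 1308 counts in replicate 1 and 953 in replicate 2, or 55.2 and 47.0 CPM. With the deposited length this was 277 TPM in replicate 1 and 265 TPM in replicate 2, a mean of 271 ± 8.53 TPM and rank 615 of all genes. Relative to the mean, the replicates lay closer together than for the other 3 RNAs on this scale. On CPM those of Malat1 lay closer, at 4502 ± 201 CPM against 51.1 ± 5.76 CPM for Neat1.

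Spread over the exons of the whole gene, which were mostly not counted, Neat1 came to 8.38 and 7.59 TPM (7.98 ± 0.557 TPM), rank 8013. With exonic length limited to the counted span, a choice made after seeing the data, it came to 49.4 and 44.9 TPM (47.1 ± 3.19 TPM), rank 3883. For Neat1 the deposited length and the exonic length inside the counted span are the same 3178 bp, so both match the stretch that was counted. The latter sets other genes at their exonic length, although their counts include intron fragments. None of the 3 values measures the paraspeckle isoform by itself.

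Miat was at the limit of detection. It had 9 counts in replicate 1 and 3 in replicate 2, or 0.379 CPM (exact 95% Poisson interval 0.174 to 0.720) and 0.148 CPM (0.0305 to 0.432). The 3 counts of replicate 2 equal the limit that a count of 0 allows, and the intervals of the replicates overlap. Its level was 0.386 TPM in replicate 1 and 0.169 TPM in replicate 2, with a mean of 0.277 ± 0.153 TPM, and with exonic lengths 0.0924 ± 0.0541 TPM. By deposited length 37.9% of all genes ranked below it, and 11877 genes reached 1 TPM, a level that Malat1, Tug1 and Neat1 passed and Miat did not.

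**Figure D2:**
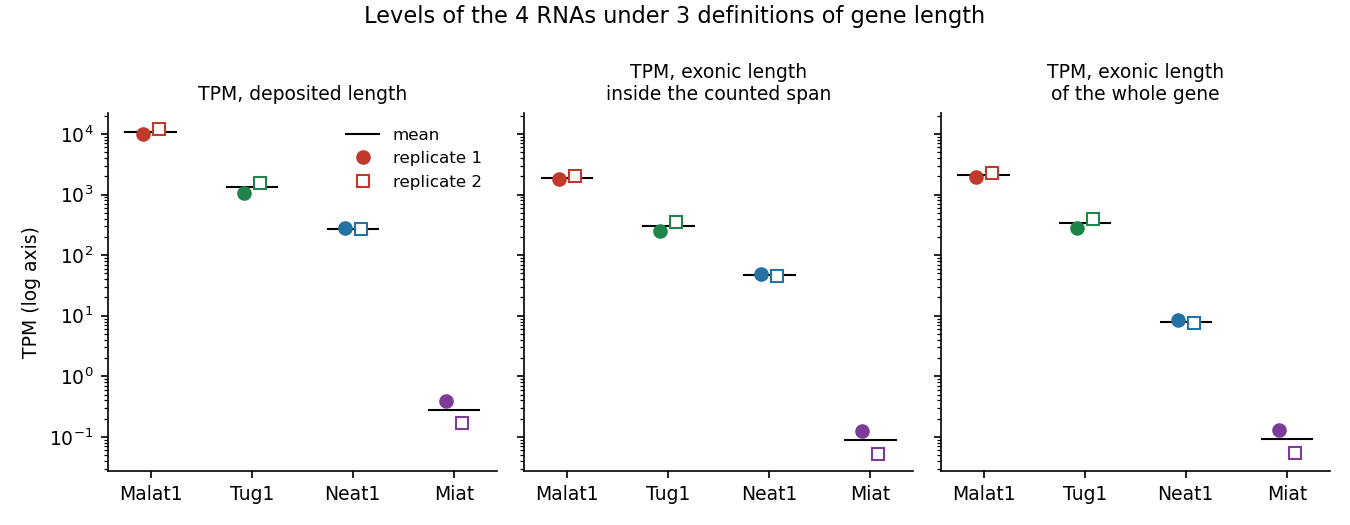
TPM of the 4 RNAs (log axis) with the deposited length, with exonic length inside the counted span and with exonic length of the whole gene. Filled circles are replicate 1, open squares replicate 2 and bars the mean, and the order Malat1, Tug1, Neat1, Miat is the same in each panel while Neat1 moves from 271 to 47.1 and 7.98 TPM.

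The order of the levels was Malat1, Tug1, Neat1, Miat in each replicate and with each of the 3 lengths. Malat1 was 9.51-fold over Tug1 in replicate 1 and 7.60-fold in replicate 2. Tug1 was 3.78-fold over Neat1 in replicate 1 and 5.91-fold in replicate 2. Neat1 was 719-fold over Miat in replicate 1 (exact 95% counting interval 378 to 1576) and 1572-fold in replicate 2 (536 to 7634), and these wide intervals come from the few counts of Miat. The replicate values of no neighbours in the order overlapped, although 2 replicates allow no test of the order. Both steps that involve Neat1 depended on the length. Tug1 over Neat1 was 32.9-fold and 51.5-fold with the exonic length of the whole gene and 5.04-fold and 7.88-fold inside the counted span, and Neat1 over Miat was 64.1-fold and 140-fold with the first and 399-fold and 871-fold with the other. Malat1 and Neat1, whose counted spans lie 39.6 kb apart, differed 36.0-fold in replicate 1 and 45.0-fold in replicate 2 with the deposited length, and 235-fold and 294-fold with the exonic length of the whole gene.

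The 4 RNAs together took 0.501% of the counts of replicate 1 and 0.548% of replicate 2, and most of this was Malat1. Whether each RNA differed between the replicates was tested with a two-sided exact binomial test of its 2 counts against the ratio of the library totals, adjusted by Benjamini-Hochberg over all genes with at least 10 counts. Of the 4 RNAs 3 passed, where 60.8% of the 14536 genes tested passed, and 77.4% of the 5727 genes with at least 1000 counts. The count is near that background and is no result about the 4 RNAs. Of all genes tested, 2202 were higher and 6640 lower in replicate 2.

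**Figure D3:**
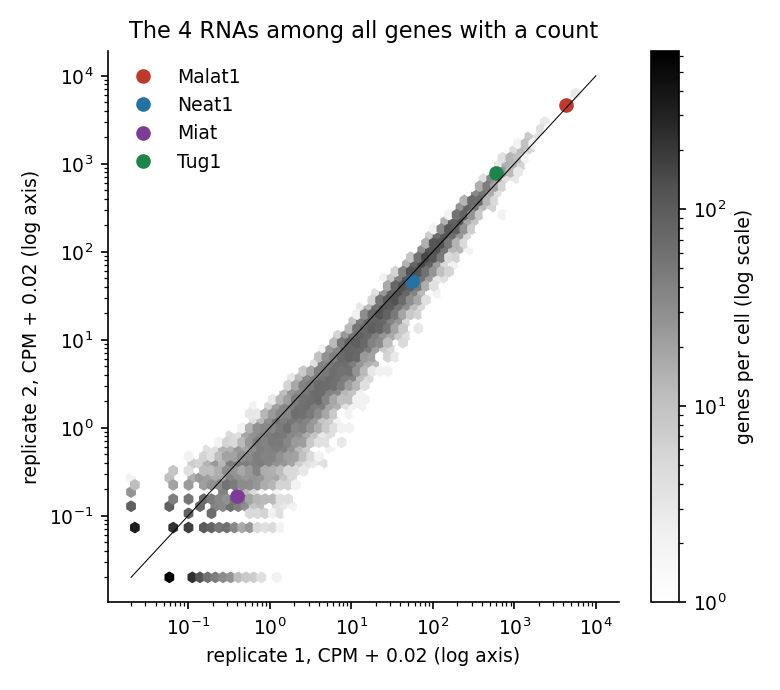
CPM of each gene in replicate 1 (x axis) and replicate 2 (y axis), both on log axes after adding 0.02 CPM, with grey cells shaded by the number of genes and the diagonal marking equal values. Malat1 lies at 4360 and 4644 CPM at the top end, Tug1 lies above the diagonal, Neat1 below it and Miat among genes with a few counts.

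Tug1 was higher in replicate 2, with a log2 ratio of replicate 2 over replicate 1 on CPM of 0.41 (exact 95% interval 0.38 to 0.45, adjusted p = 1.1e-134 by the exact binomial test), or 1.33-fold. With its sign, this ratio was above that of 95.4% of the 9736 genes that had 50 counts or more in both libraries. By size of the difference, 61.8% of those genes differed less than Tug1. Malat1 was also higher in replicate 2, by 0.09 (0.08 to 0.10, adjusted p = 1.79e-43, exact binomial test), or 1.07-fold. By size of the difference only 15.9% of those genes differed less than Malat1, so its small p comes with a small difference. Neat1 was lower in replicate 2, with a log2 ratio of -0.23 (-0.35 to -0.11, adjusted p = 0.000411, exact binomial test). Miat did not pass, at -1.21 (-3.88 to 0.64, adjusted p = 0.22, exact binomial test), an interval that covers changes in either direction.

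Scaling and base composition moved with these differences. Library factors of edgeR (TMM) moved every log2 ratio by 0.22 and those of DESeq2 by 0.31, which took Neat1 to -0.01 (adjusted p = 0.949, exact binomial test) and 0.08 (adjusted p = 0.266) and left Tug1 and Malat1 higher in replicate 2. Across 9241 autosomal genes, the log2 ratio fell with the GC content of the longest transcript (Spearman's rho = -0.66, a description across genes that share the same 2 libraries). Ordered by GC content the RNAs ran from Tug1 (37.9%) over Malat1 (42.5%) and Neat1 (47.3%) to Miat (55.1%), and their log2 ratios ran in the opposite order.

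Against a cubic trend on GC content, the same exact test passed 44.5% of 14395 genes and 2 of the 4 RNAs. The trend itself stood at 0.34 for Tug1, 0.11 for Malat1, -0.23 for Neat1 and -0.70 for Miat. What was left was 0.08 for Tug1 (adjusted p = 2.81e-05, exact binomial test), -0.02 for Malat1 (adjusted p = 0.0347), -0.01 for Neat1 (adjusted p = 0.977) and -0.52 for Miat (adjusted p = 0.693). Malat1 thus changed direction, and the difference of Neat1 was lost. With the GC content of its counted transcript Neat1-202 (51.1%), chosen after seeing the data, Neat1 instead came out higher in replicate 2 by 0.26 (adjusted p = 0.000101, exact binomial test). No direction between the replicates can therefore be given for Neat1 or Malat1 apart from the scaling used.

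**Figure D4:**
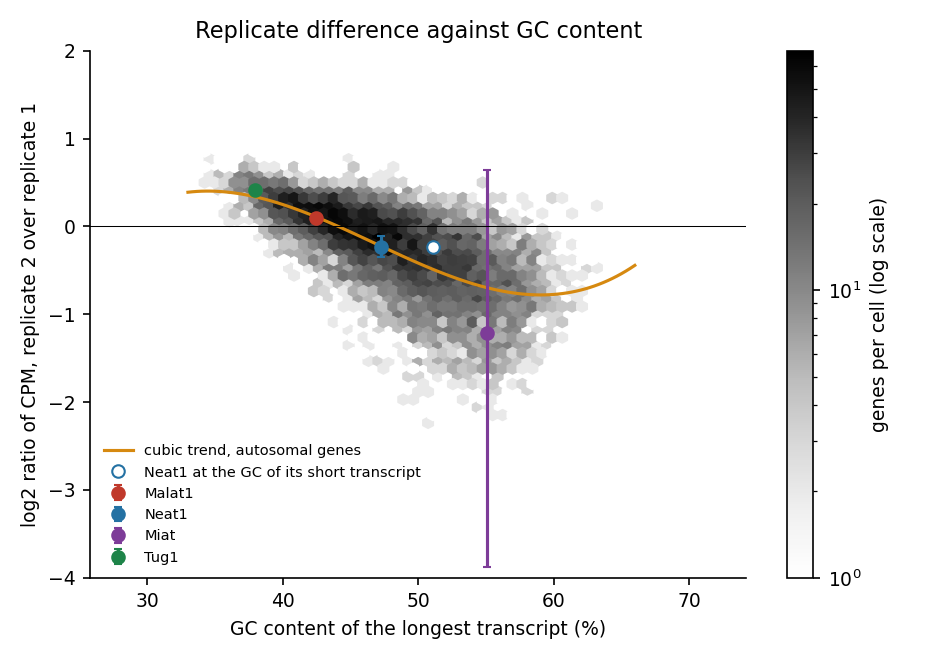
Log2 ratio of CPM, replicate 2 over replicate 1, against GC content of the longest transcript in percent, with grey cells shaded by the number of autosomal genes that had 50 counts or more in both libraries, and the cubic trend in orange. Bars on the 4 RNAs are exact 95% counting intervals. Tug1, Malat1 and Neat1 lie near the trend, and the open circle shows Neat1 at the GC content of its short transcript, 51.1%.

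The gene upstream of Neat1 and those on both sides of Tug1 were at lower levels than these RNAs. At 5.495 kb from Neat1, Frmd8, a cofactor of the protease regulator iRhom, had 211 and 120 counts, or 5.13 ± 1.05 TPM with the deposited length, where Neat1 was 53.0-fold over it. With exonic lengths inside the counted spans Neat1 was 6.90-fold over it, at 47.1 against 6.83 TPM. With exonic lengths of the whole genes, which for Neat1 were mostly not counted, it was 1.5-fold over it, at 7.98 against 5.32 TPM.

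Morc2a, a chromatin ATPase gene on the opposite strand whose start lies 679 bp from the counted span of Tug1, had 4522 and 4119 counts. It stood at 81.9 ± 10.3 TPM, and Tug1 was 16.0-fold over it with the deposited length and 2.94-fold with exonic lengths. On the other side of Tug1, Smtn, a smooth muscle cytoskeletal gene 100 kb away, had 239 and 38 counts. The neighbours of Miat, 1700028D13Rik and the lens crystallin gene Cryba4, had 0 counts in both libraries.

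The genes whose levels were most like those of each RNA were found by Euclidean distance in log2(TPM + 1) over the 2 libraries, and 2 libraries say little about a shared pattern. For Malat1 they were Eif4a2, a translation initiation helicase (9742 and 10585 TPM), and Npm1, a nucleolar chaperone (8688 and 10474 TPM). For Tug1 they were Esco2, a cohesin acetyltransferase (1043 and 1560 TPM), and Trp53inp1, a p53 target (1075 and 1603 TPM). For Neat1 they were Lyrm5 (270 and 276 TPM) and Hdac2, a histone deacetylase (267 and 259 TPM). For Miat they were Rtl1 and Psmb9, each with 3 counts in replicate 1 and 1 count in replicate 2.

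Genes for proteins known to work with these RNAs were mostly present above 10 TPM. Of all 22556 genes 11877 reached 1 TPM, and the median of those 11877 was 13.497 TPM. The share of all genes at 10 TPM was not computed. Whether the counts at 10 TPM given below are unusual was therefore not tested for any of the lists, the long noncoding RNAs included. Over all genes tested the median level was 7.88 TPM, and the median log2 ratio was -0.31. With library totals 60.8% of them passed the replicate test, 15.1% higher and 45.7% lower in replicate 2. The shares were 57.7% with TMM factors (27.0% and 30.8%), 57.8% with DESeq2 size factors (31.6% and 26.1%) and 44.5% against the GC trend (23.0% and 21.6%). Of 29 paraspeckle protein genes 28 were in the table, 26 of them countable, since Rbm14 and Rbm12 lay wholly within other genes of their strand and had 0 counts. All 26 reached 10 TPM, with a median of 163 TPM. Among the proteins that bind Neat1 along its length, Sfpq stood at 1883 ± 538 TPM, Nono at 593 ± 14.9 TPM and Pspc1 at 51.5 ± 14.4 TPM. Hnrnpk, which favours the long isoform by blocking use of the early polyadenylation site, stood at 1034 ± 175 TPM. Srsf10 was also among the highest 3 of the list with the deposited length, at 1401 ± 334 TPM. In the replicate test 22 of 26 (84.6%) passed, near the 77.4% of all genes with at least 1000 counts, 15 higher and 7 lower in replicate 2, with a median log2 ratio of 0.15. The split was 22 higher and 2 lower with TMM factors, 23 and 1 with DESeq2 size factors, and 19 and 3 against the GC trend. With library totals Hnrnpul1 had the largest difference, at -0.77. Against the GC trend it stood at -0.12, and Ewsr1 at 0.84 and Sfpq at 0.83 were larger in size.

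All 24 listed genes for proteins of nuclear speckles, the bodies that hold Malat1, reached 10 TPM, with a median of 272 TPM. With the deposited length the highest were the SR splicing factors Srsf2 at 5143 ± 828 TPM, Srsf1 at 4616 ± 1205 TPM and Srsf5 at 2806 ± 629 TPM, all under Malat1 at 10958 TPM on the same scale. With exonic lengths Rbm25 was the highest, at 1949 TPM. The lowest with either length was Acin1, at 20.2 TPM with the deposited one. The proteins taken as the core of the body, Son and Srrm2, stood at 135 and 211 TPM. Of the 24 genes 20 (83.3%) passed the replicate test, also near the 77.4% of genes with at least 1000 counts, 13 higher and 7 lower in replicate 2, with a median log2 ratio of 0.10. The split was 18 higher and 6 lower with TMM factors, 18 and 5 with DESeq2 size factors, and again 13 and 7 against the GC trend. Ddx39b had the largest difference with library totals, at -1.16, but against the GC trend it stood at -0.46, a smaller size than the 0.82 of Srsf4.

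Genes for proteins that process or bind the triple-helix end had a median nearer to that of all genes. Of 13 genes for RNase P subunits, the tRNA 3′ nuclease Elac2 and the triple-helix binder Mettl16, 11 reached 10 TPM, and the median was 31.7 TPM. Rpp38 (117 ± 21.4 TPM), Rpp40 (103 ± 8.52 TPM) and Pop4 (73.0 ± 25.8 TPM) were the highest and Rpp25l (3.32 TPM) the lowest with the deposited length. With exonic lengths Rpp30 was the highest, at 258 TPM, and Rpp38 stood at 78.9 TPM. Elac2 stood at 6.59 TPM and Mettl16 at 31.7 ± 0.0716 TPM. In the replicate test 9 of 13 (69.2%) passed, near the 60.8% of all genes tested, 1 higher and 8 lower in replicate 2, with a median log2 ratio of -0.64 and, with library totals, the largest difference for Rpp25, with 72 counts in replicate 1 and 7 in replicate 2. The split was 4 higher and 5 lower with TMM factors, 5 and 5 with DESeq2 size factors, and 2 and 5 against the GC trend.

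Of the 3 splicing factors listed here as binders of Miat, a pair was plentiful where Miat itself was at the limit of detection. Sf1, the branch point protein, stood at 259 ± 4.57 TPM, and Qk, the RNA-binding protein Quaking, at 153 ± 52.3 TPM. Celf3, a CELF protein best known from the nervous system, had 1 count in each library. Qk was higher in replicate 2 by the replicate test, and Sf1 was lower with library totals and higher with TMM factors, with DESeq2 size factors and against the GC trend.

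**Figure D5:**
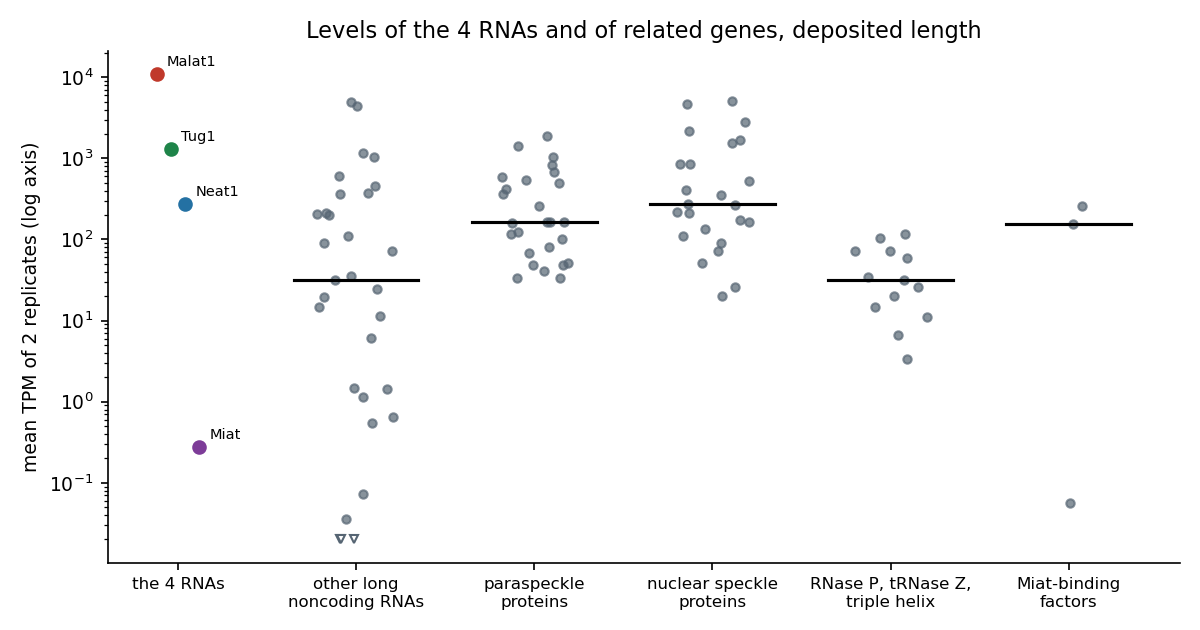
Mean TPM of the 2 replicates (log axis, deposited length) for the 4 RNAs in colour and for genes of 5 lists in grey, with bars at the list medians. Triangles mark genes at 0 in both libraries and genes wholly within another gene of their strand are left out. Malat1 lies above every listed gene, and Miat lies below the medians of all 5 lists.

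Set against 44 other well known long noncoding RNAs, of which 32 were in the table, the 4 RNAs ran from the top of the range to its low end. Of the 32, 24 reached 1 TPM and 20 reached 10 TPM, and the 31 that could be counted had a median of 31.2 TPM. Malat1 was above all of them with the deposited length. Tug1 at 1310 TPM lay under Snhg1 at 5019 ± 95.1 TPM and Gas5 at 4380 ± 50.0 TPM and above Snhg3 at 1173 ± 245 TPM. With exonic lengths Tug1 at 333 TPM lay under Snhg3 at 683 TPM and Rian at 809 TPM as well, and Malat1 at 2100 TPM lay under Snhg1 at 3166 TPM and Gas5 at 3335 TPM. Neat1 at 271 TPM was above the median of the list with the deposited length. With exonic lengths inside the counted spans it was also above, at 47.1 TPM against a median of 22.2 TPM, and with the exonic length of the whole gene, mostly not counted, it was below, at 7.98 against 24.6 TPM. Miat was below the median with each of the 3 lengths. Hotair, Hottip, Dlx6os1 and Peg13 had 0 counts in both libraries, and Peg13 lies wholly within another gene of its strand. In the replicate test 16 of the 27 tested (59.3%) passed, near the 60.8% of all genes tested, 2 higher and 14 lower in replicate 2, with a median log2 ratio of -0.13. With library totals the largest difference was that of H19, an imprinted RNA, with 620 counts in replicate 1 and 173 in replicate 2. The split was 11 higher and 8 lower with TMM factors, 14 and 6 with DESeq2 size factors, and 6 and 10 against the GC trend.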

How the data were processed

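Messenger RNA libraries of 2 replicates were made with the Dynabeads mRNA DIRECT kit and the Illumina TruSeq stranded total RNA kit. The authors deposited raw counts of fragments per gene (featureCounts, version 1.5.2 per the file headers, reverse-stranded, transcript features, mm10), so introns were counted with exons, and a fragment in overlapping genes of a strand was counted for none. The submitters' processing notes also name STAR 2.4.2a and Bowtie2 2.3.2, without saying which was used for these libraries. Column names lack a letter b of the sample descriptions and were matched by the rest. For all 22556 genes the deposited length was that of the merged transcript spans, introns included.

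TPM was computed from the counts and that length, and the replicates were averaged. Exonic lengths and GC content came from GENCODE M21 basic transcripts (98.1% of genes matched, 21258 by symbol and 879 by an older symbol). Log2 ratios were taken on CPM after adding 0.5 counts. Replicates were compared with a two-sided exact binomial test, Benjamini-Hochberg adjusted at 0.05 over all genes whose 2 counts summed to 10 or more, which compares these 2 libraries and not conditions. The test was checked on simulated counts. Alternatives were TMM factors (edgeR 4.0.16, R 4.3.3, after its filter left 12648 genes), DESeq2 1.42.0 size factors, other filters and pseudocount, a GC trend of degree 3 and other lengths. Python 3.11.15 with scipy 1.17.1 was used.

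Genes were named by rule: the 4 RNAs, their nearest listed neighbours, the 2 genes closest in level to each, and of each list the 3 highest, the lowest, the largest replicate difference past the test with at least 50 counts, and known protein partners. Some genes that this rule names are not reported here. Markers, a few highly expressed genes and Rian, Ewsr1, Srsf4, Rbm25 and Rpp30, chosen after their values were seen, were named beside results that turn on them. The members and lists were chosen with earlier results of these data known.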

Additional observations from a re-analysis of the deposited data

How the results depend on the processing

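No paired analysis was possible because there is only 1 group of samples and nothing to pair. Levels depended most on the length. With exonic length the mean was 2100 TPM for Malat1, 333 for Tug1, 7.98 for Neat1 and 0.0924 for Miat, and inside the counted span, a choice made after seeing the data, 1897, 301, 47.1 and 0.0877 TPM. With the length of the shortest Neat1 transcript of at least 2 kb, Neat1 stood at 287 TPM. Without replicate 1 or 2, Malat1 ran from 9982 to 11935 TPM, Tug1 from 1050 to 1570, Neat1 from 265 to 277 and Miat from 0.169 to 0.386, the last lower without replicate 1. The log2 ratio of Malat1 over Tug1 was 3.06 and became 2.66 with either exonic length. That of Tug1 over Neat1 was 2.27 and became 5.38 with exonic length of the whole gene, and that of Neat1 over Miat was 9.93 and became 6.43 with it and 9.07 inside the counted span. Leaving out a replicate gave 2.93 to 3.25, 1.92 to 2.56 and 9.49 to 10.62.

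Differences between replicates kept their direction and side of the threshold in all alternatives for Tug1 and Miat. Malat1 reversed to -0.016 against the GC trend. Neat1 went to -0.01 with TMM factors and against the GC trend, and reversed to 0.081 with DESeq2 size factors and to 0.26 against the GC trend at the GC content of its counted transcript. The causes were not tested. Miat rests on 9 and 3 counts, and the interval of its log2 ratio covers changes in either direction. At least 10 counts in each replicate left Miat untested, and 3 of 3 RNAs passed.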
